A study of Mus musculus with 36 samples.

Results

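Heat shock chaperones are proteins that bind other proteins while these fold, assemble, cross membranes or lose their shape. Described here are 10 of their genes, chosen by name: the cytosolic HSP70 genes *Hspa8*, *Hspa1a* and *Hspa1b*, the HSP110 gene *Hsph1*, the J-domain genes *Dnaja1* and *Dnajb1*, the cytosolic HSP90 genes *Hsp90aa1* and *Hsp90ab1*, the HSP70 of the endoplasmic reticulum (ER), *Hspa5*, and the mitochondrial co-chaperonin *Hspe1*. All 10 are among the 24781 genes of the deposited table. They passed the filter on low numbers (a mean of more than 1 normalized molecule per library) in TAMs, in CD8+ T cells and in both together.

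HSP70 proteins hold on to exposed stretches of unfolded protein in a cycle driven by ATP, in which J-domain proteins bring the client and start hydrolysis, and HSP110 proteins release the nucleotide. HSP90 proteins act later, on clients such as kinases and steroid receptors, and their ER and mitochondrial relatives do this work inside those compartments. Some of the genes are active at all times, while others are switched on by heat shock factor 1, which binds repeated GAA and TTC units, or, in the ER, by the unfolded protein response. In leukocytes taken from tissue, the inducible genes are also known to respond to the handling of the cells, as immediate early genes do, and the part of handling in the values below was not tested.

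The study asks how GABA made by B cells acts on immune cells of a tumour. Mice carried MC38 tumours, grown from a colon adenocarcinoma line, and the cells were sorted on day 7. There were 3 groups: wild type (WT) mice, *muMt*-/- mice, and *muMt*-/- mice carrying a pellet that releases GABA. The *muMt* mutation disrupts the heavy chain gene of IgM, so these mice lack mature B cells, and they do so in every tissue and from birth. The sample labels give no treatment for the groups without GABA, which the paper describes as carrying placebo pellets, and they give no age, sex or batch for single mice; the paper as a whole used both sexes, 2 to 5 months of age. A library was made from 100 tumour-associated macrophages (TAMs, sorted as CD45+CD11b+F4/80 high) or 100 CD8+ T cells (CD45+TCRβ+CD8+) of a tumour. This gave 36 libraries, 6 for each group and cell type. The paper counts 1 library per mouse, the labels do not number the mice, and edgeR's fits treat all libraries as independent.

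In this digital RNA sequencing each molecule is barcoded at reverse transcription from its poly(A) tail, so that copies made by PCR are counted once. Depth is the number of molecules in a library. It was 206394 to 304100 for TAMs of WT mice (median 242756), 100254 to 253608 for those of *muMt*-/- mice (median 149960.0) and 151856 to 262606 with GABA (median 192775). For CD8+ T cells it was 22896 to 76898 (WT, median 42065.5), 51064 to 77839 (*muMt*-/-, median 67121.5) and 65356 to 98015 (GABA, median 80283). No CD8+ T cell library was as deep as any TAM library. The labels describe spike-in RNAs added before lysis, but the deposited table holds none of them, so amounts of RNA per cell are unknown. In pools of 100 cells, fewer cells that express a gene and less of its RNA per cell cannot be told apart.

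The sorted cell types were checked against marker genes. The 12 macrophage markers summed to 69.8 to 125 per 10000 molecules over the TAM libraries, with *C1qc* the most abundant. The 10 markers of CD8+ T cells summed to 26.6 to 87.7 per 10000 in the T cell libraries, with *Gzmb* the most abundant, and to at most 0.549 in the TAM libraries.

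Macrophage markers were also counted in the T cell libraries. All 12 were detected there, *Cd14* as the most abundant, and they summed to 0 to 8.89 per 10000 in WT mice, 4.31 to 43.3 in *muMt*-/- mice and 0.869 to 26.5 with GABA. The highest values were in *muMt*-/- replicate 1 and GABA replicate 1. Among TAMs, the 8 markers of tumour and stroma stood out in WT replicate 6, at 52.8 per 10000, with *Col3a1* the most abundant, where the median of that group was 3.66; *Epcam*, *Krt18* and *Krt19* were at 0 in all TAM libraries. Markers of neutrophils and CD4 T cells stayed lower: 5 neutrophil markers reached 2.68 and 3 CD4 T cell markers 0.926 per 10000 in their highest library.

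The molecules of the 10 chaperones were also summed. In TAMs the sum was 52.8 to 74.2 per 10000 in WT mice (median 65.2), 51.0 to 70.0 in *muMt*-/- mice (median 58.6) and 53.6 to 61.3 with GABA (median 57.0). In CD8+ T cells it was 63.6 to 76.0 in WT mice (median 66.2), 57.4 to 79.8 in *muMt*-/- mice (median 66.9) and 62.1 to 78.8 with GABA (median 69.7). The groups overlapped in each cell type. Between the cell types the ranges overlapped in WT and in *muMt*-/- mice. With GABA all T cell sums were above all TAM sums, a difference that was not tested. These sums are shares of a library's molecules, and another scaling could change this, as it did the sign of *Hspa8* below.

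Loss of B cells was addressed by *muMt*-/- against WT mice, the effect of giving GABA in their absence by GABA-treated against untreated *muMt*-/- mice, and what then still separated the animals from normal ones by GABA-treated *muMt*-/- against WT mice. These 3 comparisons share groups within a cell type and are not independent. All genes past the filter were tested with edgeR's quasi-likelihood test, and a gene was called when its p, adjusted over all genes tested by Benjamini and Hochberg's method, was under 0.05. A log2 fold change of 1 is a doubling. No chaperone of the 10 was called in any of the 6 comparisons of groups. In simulated counts for *muMt*-/- against WT, the test recovered 30 of 100 log2 changes of 1 in TAMs and 11 in T cells. For log2 changes of 2 it recovered 74 and 53 of 100. The changed genes were drawn at random from those tested. A gene not called can thus still have changed.

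In TAMs of *muMt*-/- against WT mice, 0 of the 10 were called by edgeR, where 2.05% of all 9469 genes tested were (194 genes, of which 97 were higher). Without adjustment, 1 chaperone had a p under 0.05, *Hspe1*, against 14.9% of all genes (1408 genes). DESeq2 called 0 of the 10 and 282 genes in all after adjustment, and 2 of the 10 without it, *Hspe1* and *Hspa5*, where 1111 genes in all passed unadjusted. The median log2 fold change of the 10 was -0.10, with 4 higher and 6 lower, and that of all genes was -0.05. The number of genes called was not stable. It was 11 with depth as a covariate, 295 with filterByExpr and 343 without a filter, and depth differs between these groups. With single libraries left out it was 86 without WT replicate 1, 119 without WT replicate 6 and 69 without *muMt*-/- replicate 4, and 0 chaperones were called in each of these fits.

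With GABA against *muMt*-/- TAMs, edgeR called 0 of the 10 and 0.0211% of all genes, which were 2: *BC018473* (log2 fold change -2.38) and *Lrrc17* (1.58), both named here only after their values were seen. The only chaperone with an unadjusted p under 0.05 was *Hspa5*, 1 of 10 against 8.46% of all genes (801). By DESeq2, 0 of the 10 and 62 genes in all were called, and at an unadjusted p under 0.05 the same 1 of 580 genes. EdgeR's count of 2 was 35 without GABA replicate 1 and 51 without the filter, with 0 chaperones called in each. The median log2 fold change was -0.02 for the 10 and 0.06 for all genes.

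With GABA against WT TAMs, 0 of the 10 were called by edgeR and 0.0739% of all genes (7). The count of 7 was 2 without WT replicate 3 or 6 or GABA replicate 2 or 3, and 63 without the filter. Before adjustment, 0 chaperones had a p under 0.05, against 7.02% of all genes (665). With DESeq2, 0 of the 10 and 13 genes in all were called, and 1 chaperone had an unadjusted p under 0.05, *Hsp90ab1*, among 440 genes. The median was -0.15 for the 10, of which 9 were lower, and 0.02 for all genes. Of the 10, only *Dnaja1* was on the higher side in edgeR's fit.

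**Figure D1:**
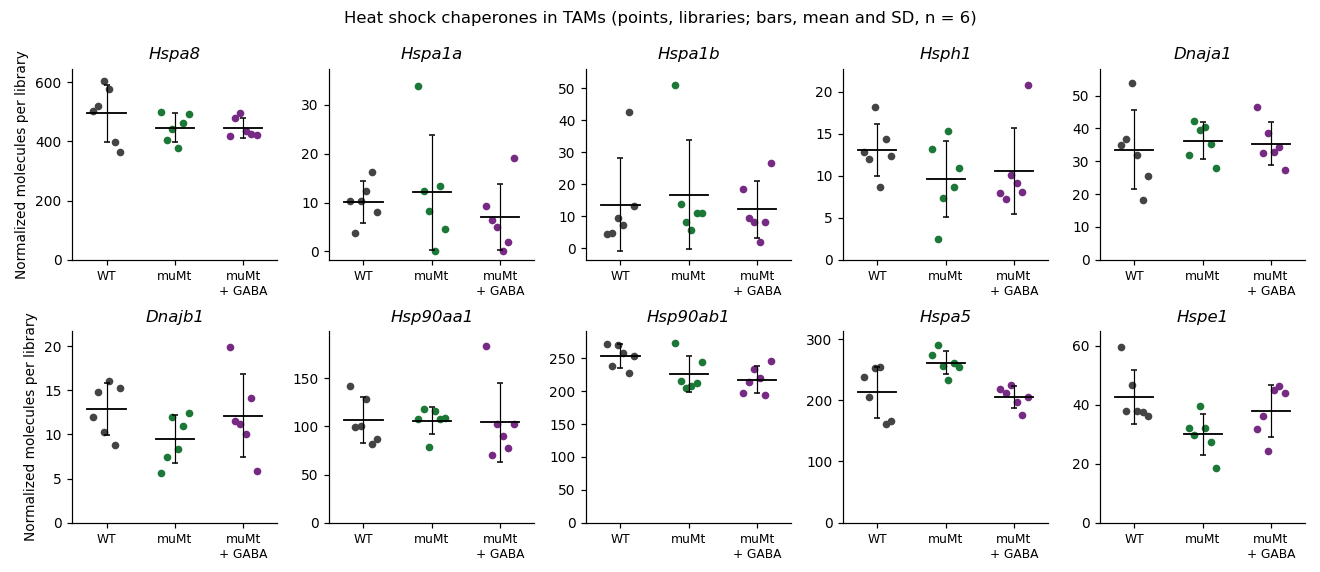
Normalized molecules per library (counts divided by size factors) of the 10 chaperones in TAMs, with each point a library of 100 cells, the horizontal line the mean and the bars the SD of 6 mice. For *Hspa5* the 6 GABA libraries lie at or under 226 and the 6 *muMt*-/- libraries at or over 233, while *Hspa1a* and *Hspa1b* vary widely within every group.

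In CD8+ T cells of *muMt*-/- against WT mice, edgeR called 0 of the 10 and 0% of all 6663 genes tested. *Hspa8* was the 1 chaperone at an unadjusted p under 0.05, against 6.17% of all genes (411). DESeq2 called 0 of the 10 and 0 genes in all after adjustment, and 1 chaperone among 222 genes without it, *Hsp90ab1*. The median log2 fold change was 0.22 for the 10 and 0.15 for all genes, so fold changes against WT T cells carry an upward shift shared by most genes.

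With GABA against *muMt*-/- T cells, edgeR called 0 of the 10 and 0% of all genes. *Dnajb1* was the 1 chaperone at an unadjusted p under 0.05, against 3.71% of all genes (247). By DESeq2 the counts were also 0 of the 10 and 0 genes in all, with the same chaperone among 133 genes at an unadjusted p under 0.05. The medians were 0.15 for the 10 and 0.03 for all genes.

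With GABA against WT T cells, edgeR again called 0 of the 10 and 0% of all genes. Without adjustment, 1 chaperone had a p under 0.05, *Hspa8*, against 6.89% of all genes (459). By DESeq2, 0 of the 10 and 1 gene in all were called, and 0 chaperones and 222 genes had an unadjusted p under 0.05. The medians were 0.31 for the 10 and 0.21 for all genes.

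**Figure D2:**
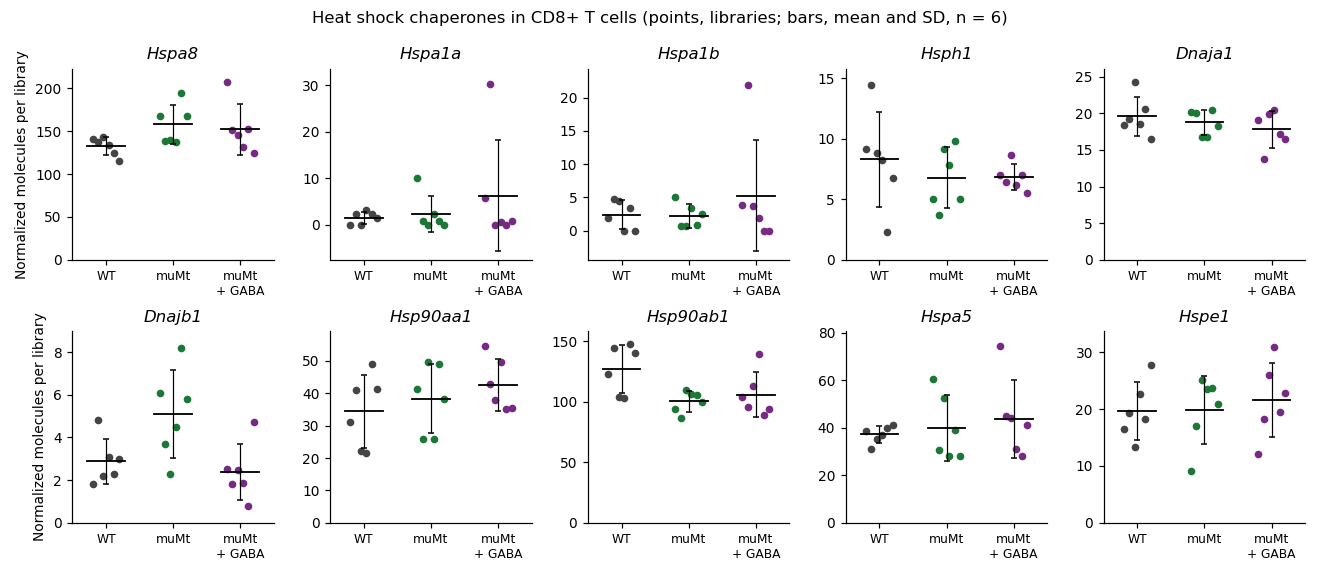
Normalized molecules per library of the 10 chaperones in CD8+ T cells, with each point a library of 100 cells, the horizontal line the mean and the bars the SD of 6 mice. *Hspa1a* and *Hspa1b* are near 0 in most libraries, and a single GABA library holds 30.2 and 21.9 of them.

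Whether the cell types differed in their response was tested as an interaction in a fit of all 36 libraries and 8477 genes. For the response to loss of B cells edgeR called 0 of the 10 and 0.0118% of all genes, which was *BC018473* alone (-2.57, named after its value was seen). The count of genes was 0 with filterByExpr, with DESeq2's size factors, in a robust fit and without some single libraries. It was 9 without T cell WT replicate 5. At an unadjusted p under 0.05 there were 2 chaperones, *Dnajb1* and *Hspa8*, against 10.1% of all genes (853, of which 705 were lower). The median was -0.29 for the 10 and -0.30 for all genes, so fold changes of this interaction carry a downward shift shared by most genes. For the response to GABA it called 0 of the 10 and 0% of all genes. There, 1 chaperone had an unadjusted p under 0.05, *Dnajb1*, against 4.53% of all genes (384), and the medians were -0.11 for the 10 and 0.01 for all genes. DESeq2 called 0 of the 10 in both, with 38 genes in all in the first and 0 in the second.

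Calls among the 10 were made only between the cell types. TAMs against CD8+ T cells, averaged over the 3 groups, gave 5 of the 10 called, where 39.1% of all genes were (3318 of 8477). Higher in TAMs was 1 of the 10, *Hspa5*, against 26.9% of all genes (2280), and lower were 4, *Hsph1*, *Dnaja1*, *Hsp90ab1* and *Hspe1*, against 12.2% (1038). The median log2 fold change was 0.07 for the 10 and 0.19 for all genes tested, so that a value under 0.19 lies below that of the median gene.

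Depth goes with cell type in these libraries, and their parts in these differences cannot be told apart. With depth (as log2 molecules) added as a covariate, 2 of the 10 and 1028 genes were called, and *Hspa5*, *Hsph1* and *Dnaja1* were not among them. In WT libraries alone, 3 of the 10 and 2034 genes were called: *Hspa5*, *Hsp90ab1* and *Hspa8*, the last of which was not called over all libraries.

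**Figure D3:**
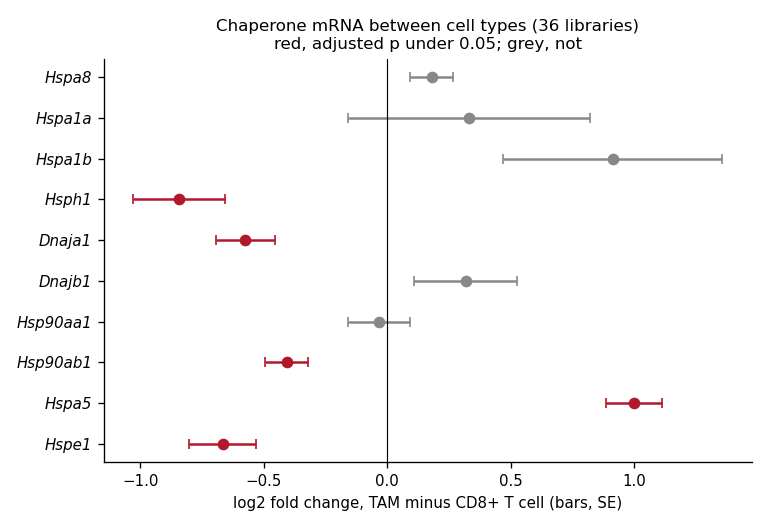
Log2 fold change of each chaperone between TAMs and CD8+ T cells over 36 libraries, with bars for the SE and red for an adjusted p under 0.05. *Hspa5* lies at 0.999 and *Hsph1* at -0.84, and *Hsp90aa1* lies beside 0.

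*Hspa8* (GRCm38.p6, chr9:40801276-40805202) encodes the constitutive cytosolic HSP70, which also strips clathrin from vesicles. In CD8+ T cells its normalized number was 116 to 144 in WT mice (median 136), 137 to 195 in *muMt*-/- mice (median 154) and 125 to 208 with GABA (median 148). Of the 6 libraries of a group, 3 *muMt*-/- and 4 GABA libraries were above every WT library, and the rest overlapped with WT. In log2 fold change, the difference from WT was 0.38 in *muMt*-/- mice (SE 0.16, adjusted p = 0.686). With GABA it was also 0.38 against WT (SE 0.16, adjusted p = 0.61), and neither passed the correction. The highest T cell library for *Hspa8*, GABA replicate 1, is among the 2 with the most macrophage markers, whose part in the value was not tested.

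In TAMs the same gene gave 365 to 604 in WT mice (median 512), 376.5 to 501 in *muMt*-/- mice (median 453.5) and 418 to 498 with GABA (median 430). The 3 groups overlapped, with all *muMt*-/- and GABA libraries inside the WT range. The difference between the cell types in the response to loss of B cells was -0.58 (SE 0.22, adjusted p = 0.337), where the median of all genes was -0.30.

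Between cell types *Hspa8* had no stable direction. It was 18.5 to 32.6 per 10000 molecules in TAMs (median 23.6) and 20.03 to 34.4 in T cells (median 24.4), a ratio of means of 0.953, yet 0.18 on the log2 scale in edgeR's fit (SE 0.09, adjusted p = 0.1). The sign turns on how libraries are scaled. It was called without GABA-treated T cell replicate 1 (0.22, adjusted p = 0.0333) and in WT libraries alone (0.54, adjusted p = 0.00303), and its adjusted p ranged from 0.00303 to 0.876 over the alternatives.

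Reads of *Hspa8* are also hard to place. Of the 451 stretches of 50 bases in the last 500 bases of its transcript, 81.8% occur also in other annotated genes, 11 processed pseudogenes in all, and none of these is in the deposited table. For *Hspe1* the share was 53.2%, with 6 other genes, and for *Hsp90ab1* 7.76%. For the other 7 it was 0%. How reads that fit several places were counted is not stated.

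*Hspa1a* (chr17:34969359-34972156) and *Hspa1b* (chr17:34956429-34959238) are the stress-inducible cytosolic HSP70 genes, 10120 bases apart and coding for nearly the same protein. Over whole transcripts, 58.8% of the 50-base stretches of *Hspa1a* are also in *Hspa1b*, but 0 of those in its last 500 bases, where priming from the poly(A) tail starts. The genes are given apart and as a sum.

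In TAMs, *Hspa1a* gave 3.69 to 16.3 normalized molecules in WT mice (median 10.2), 0 to 33.9 in *muMt*-/- mice (median 10.4) and 0 to 19.1 with GABA (median 5.79). *Hspa1b* gave 4.26 to 42.7 in WT mice (median 8.37), 5.58 to 50.9 in *muMt*-/- mice (median 10.9) and 1.83 to 26.6 with GABA (median 8.75). For *Hspa1b*, WT replicate 5 and *muMt*-/- replicate 1 were far above the rest of their group, whose next highest libraries had 13.1 and 13.7. For *Hspa1a* the highest of these groups were the same libraries, and GABA replicate 6 was the highest of its group for both genes. The groups overlapped in each comparison.

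For the sum of both genes, the log2 fold change in TAMs was 0.09 for *muMt*-/- against WT mice (SE 0.43, adjusted p = 0.956). For GABA against *muMt*-/- mice it was -0.46 (SE 0.45, adjusted p = 0.83), and for GABA against WT mice -0.36 (SE 0.42, adjusted p = 0.917). The sign of *Hspa1b* in *muMt*-/- against WT TAMs (0.01) was not stable, since the value reached -0.55 and 0.87 with a single library left out. Its sign also changed under alternatives for GABA against *muMt*-/- (-0.745 to 0.287) and for GABA against WT TAMs (-0.738 to 0.599).

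The spread of this pair within groups was large. Beyond counting error, its coefficient of variation within TAM groups was 0.779 for *Hspa1a* and 0.949 for *Hspa1b*, where the median of 5310 genes with a mean of at least 5 was 0.142. Of these genes, 99.5% varied less than *Hspa1a* and 99.8% less than *Hspa1b*. For the other 8 chaperones it lay between 0.0673 (*Hsp90ab1*) and 0.251 (*Hsp90aa1*). In T cells, where both genes had a mean under 5, it was 2.10 and 1.44.

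In CD8+ T cells few molecules were counted for the pair. *Hspa1a* had 0 to 3 molecules in WT libraries (median 1.5), 0 to 10 in *muMt*-/- libraries (median 1) and 0 to 33 with GABA (median 1). *Hspa1b* had 0 to 3 (median 1.5), 1 to 5 (median 2) and 0 to 24 (median 4.5). GABA replicate 2 alone held 57 of the molecules of both genes, and the next library of its group 15. It had 10.9 macrophage markers per 10000, near the median of its group (10.7). It was the highest of its group in *Rn45s* (1138.2, median 683) and *Malat1* (36.4, median 28.3), whose part in these values was not tested.

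For the sum of the pair in T cells, GABA against *muMt*-/- gave a log2 fold change of 1.38 (SE 0.67, adjusted p = 0.999). Against WT it was 1.67 (SE 0.76, adjusted p = 0.663). Both had an unadjusted p under 0.05. The sum was not fitted without GABA replicate 2, while each gene was. Without GABA replicate 2, *Hspa1a* went from 1.44 to -0.39 against *muMt*-/- and from 1.75 to -0.07 against WT mice, and *Hspa1b* from 1.23 to 0.02 and from 1.48 to 0.27. Calls of *Hspa1b* between cell types also turned on this library and on the filter. It was at 0.91 (SE 0.44, adjusted p = 0.0986) with it and at 1.31 (adjusted p = 0.0102) without it, and with it but no filter at 0.97 (adjusted p = 0.000555). The adjusted p ranged from 0.000555 to 0.248 over the alternatives. *Hspa1a* was at 0.33 (SE 0.49, adjusted p = 0.638) in edgeR's fit, while its mean per 10000 molecules was 0.916 times that of T cells, and 6 T cell and 2 TAM libraries had none of it. Without T cell GABA replicate 2, *Hspa1a* was at 0.93 (adjusted p = 0.0917).

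Among libraries of the same group, *Hspa1a* and *Hspa1b* varied together in TAMs. Over 18 libraries with group means removed, Pearson's r was 0.78 (permutation p = 0.00034, adjusted p = 0.0306) and Spearman's rho 0.79 (permutation p = 0.00019, adjusted p = 0.0171), two-sided and adjusted over the 90 pairs of chaperones in both cell types. Without the 2 libraries farthest from the median of *Hspa1a*, r was 0.74. This was the only pair of 45 in TAMs to pass, and over all 45 the median r was 0.04. *Hspa5* and *Hspa8* had a similar r of 0.78 (permutation p = 0.00461, adjusted p = 0.138), which was 0.44 without 2 libraries. In T cells 0 of 45 passed and the median r was 0.09. There *Hspa1a* and *Hspa1b* had an r of 0.56 (permutation p = 0.0434, adjusted p = 0.365) and a rho of 0.42 (permutation p = 0.119, adjusted p = 0.599). Without 2 libraries their r was 0.09, so that relation rests on these libraries.

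The genes outside the 10 whose values went most closely with the summed pair in TAMs were *Ncoa6* (r 0.78), *Slc25a39* (0.77), *Ccna2* (0.71), *Cpt1a* (0.70) and *Mrpl12* (0.69), the highest of 5300 genes over 18 libraries. In T cells they were *Mir6240* (0.76), *Cast* (0.74), *Snora75* (0.73), *Kcnq1ot1* (0.72) and *Rn45s* (0.70), of 1876 genes. These are the extremes of many values and carry no test. *Kcnq1ot1* is an RNA of the nucleus. *Rn45s* is the precursor of ribosomal RNA, whose locus also holds the sequences of the mature forms, and it took 328 to 1320.0 per 10000 molecules of the T cell libraries.

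Promoter sequences, from 250 bases before to 50 after the transcription start, were taken from RefSeq on GRCm38.p6 for the 7 of 10 genes found there; *Hspa8*, *Hsp90aa1* and *Hsp90ab1* were not matched. They were searched for pairs of heat shock units, GAANNTTC, found in 7.86% of 32851 promoters, and TTCNNGAA, found in 8.52%; both read the same on the other strand, and neighbouring copies can share a unit. The 300 bases of *Hspa1a* and *Hspa1b* are the same at 296 positions (98.7%) without gaps. The 60 bases around their GAANNTTC, which begins 104 bases before the start and is in capitals, are shown because the RNAs of the pair went together in TAMs. They lie at chr17:34972227-34972286 and chr17:34959309-34959368, both on the minus strand, and are identical.
Hspa1a: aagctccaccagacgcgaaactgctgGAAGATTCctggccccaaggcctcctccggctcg
Hspa1b: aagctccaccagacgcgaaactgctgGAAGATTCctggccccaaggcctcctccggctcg

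*Hsph1* (chr5:149616843-149636498) encodes the HSP110 protein that exchanges the nucleotide of HSP70. Per 10000 molecules it was 0.130 to 1.11 in TAMs (median 0.550) and 0.387 to 2.62 in T cells (median 1.24). Only 3 of 18 TAM libraries were below every T cell library. Few molecules of *Hsph1* were counted in T cells: 2 to 9 per WT library, 5 to 12 per *muMt*-/- library and 7 to 14 with GABA. It was lower in TAMs by edgeR's test, with a log2 fold change of -0.84 (SE 0.19, adjusted p = 0.000161). It was -0.56 with depth as a covariate (adjusted p = 0.567) and -0.59 in WT libraries alone (adjusted p = 0.195), and its adjusted p ranged from 8.38e-06 to 0.567. Within TAMs it was -0.53 in *muMt*-/- against WT mice (SE 0.30, adjusted p = 0.416), with 3 of 6 libraries below all WT ones.

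*Dnaja1* (chr4:40722468-40734965) encodes a J-domain partner of HSP70 that brings it unfolded clients. It was 0.954 to 2.90 per 10000 in TAMs (median 1.83) and 2.29 to 4.35 in T cells (median 3.27). In 16 of 18 TAM libraries it was below every T cell library. TAMs were lower by edgeR's test, at -0.57 (SE 0.12, adjusted p = 6.85e-05). With depth as a covariate it was -0.52 with an adjusted p of 0.343, and in WT libraries alone -0.60 with an adjusted p of 0.0588. Over the alternatives the adjusted p ranged from 1.19e-07 to 0.343. In both cell types its fold changes between groups lay between -0.04 and 0.12, and some changed sign under alternatives.

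*Dnajb1* (chr8:83608175-83612653) encodes the inducible J-domain protein that works with HSP70 in taking aggregates apart. In T cells, where 1 to 10 molecules per library were counted, its normalized number was 1.83 to 4.81 in WT mice (median 2.65), 2.29 to 8.18 in *muMt*-/- mice (median 5.16) and 0.781 to 4.73 with GABA (median 2.17). Of the 6 *muMt*-/- libraries, 3 were above all WT libraries, and 3 GABA libraries were below all *muMt*-/- ones. GABA against *muMt*-/- gave -1.01 (SE 0.41, adjusted p = 0.999). For *muMt*-/- against WT mice it was 0.90 (SE 0.45, adjusted p = 0.811).

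In TAMs the same gene was at 8.79 to 16.0 in WT mice (median 13.4), 5.65 to 12.4 in *muMt*-/- mice (median 9.67) and 5.82 to 19.9 with GABA (median 11.4). The groups overlapped, and the *muMt*-/- median was the lowest of the 3 here and the highest of the 3 in T cells. The difference of the cell types was -1.33 for the response to loss of B cells (SE 0.51, adjusted p = 0.353), where the median of all genes was -0.30. For the response to GABA it was 1.27 (SE 0.48, adjusted p = 0.994), so neither passed the correction. Both contrasts share the *muMt*-/- libraries. Between cell types *Dnajb1* was at 0.32 (SE 0.21, adjusted p = 0.236), with a ratio of means per 10000 of 1.01.

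*Hsp90aa1* (chr12:110691036-110696395) encodes the more inducible of the cytosolic HSP90 proteins. In TAMs its normalized number was 81.6 to 142 in WT mice (median 99.9), 78.4 to 118 in *muMt*-/- mice (median 108) and 69.9 to 183 with GABA (median 96.2). In T cells it was 21.7 to 49.2 (median 36.02), 25.8 to 49.5 (median 39.9) and 35.1 to 54.7 (median 40.4). Within each cell type the groups overlapped. The 183 is from GABA replicate 1, the TAM library with the most *Rn45s*, whose part in it was not tested. The difference between cell types was -0.03 (SE 0.12, adjusted p = 0.861), and its sign changed with the filter.

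*Hsp90ab1* (chr17:45567778-45573261), the constitutive cytosolic HSP90, was the only gene of the 10 without overlap between the cell types. It was 9.81 to 14.6 per 10000 in TAMs (median 12.2) and 14.6 to 26.2 in T cells (median 18.6). All 18 TAM libraries were below all 18 T cell libraries on this scale, where 3.3% of all genes tested were without overlap (280). EdgeR put the log2 fold change at -0.41 (SE 0.09, adjusted p = 0.000115), and the adjusted p ranged from 3.1e-12 to 0.048 over the alternatives, so it was called in each of them. In TAMs, 4 of 6 *muMt*-/- and 4 of 6 GABA libraries were below all WT libraries and 1 *muMt*-/- library was above them, with log2 fold changes of -0.19 (SE 0.13, adjusted p = 0.516) and -0.22 (SE 0.13, adjusted p = 0.771).

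*Hspa5* (chr2:34772090-34776529) encodes BiP, the HSP70 of the ER and a target of the unfolded protein response. In TAMs its normalized number was 162 to 254 in WT mice (median 221), 233 to 291 in *muMt*-/- mice (median 259) and 175 to 226 with GABA (median 209). All 6 GABA libraries were below all 6 *muMt*-/- libraries, where 0.591% of all genes tested were without overlap (56). Of the *muMt*-/- libraries, 5 were above all WT libraries, while GABA and WT libraries overlapped. The log2 fold change was -0.32 for GABA against *muMt*-/- (SE 0.14, adjusted p = 0.517). For *muMt*-/- against WT mice it was 0.27 (SE 0.14, adjusted p = 0.356), and for GABA against WT mice -0.05 (SE 0.14, adjusted p = 0.972). None of these passed the correction, and by DESeq2 the adjusted p for GABA against *muMt*-/- was 0.0836, the lowest of a range that ends at 0.687.

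In T cells *Hspa5* was 31.3 to 41.3 in WT mice (median 37.8), 28.03 to 60.7 in *muMt*-/- mice (median 34.9) and 28.1 to 74.4 with GABA (median 42.5). The highest libraries of the *muMt*-/- and the GABA group, replicate 1 of each, are the 2 with the most macrophage markers. TAM libraries hold more of this RNA, and the part of macrophage RNA in these T cell values was not tested.

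Between the cell types *Hspa5* was the only 1 of the 5 called that was higher in TAMs. It was 8.48 to 15.2 per 10000 in TAMs (median 11.7) and 4.90 to 11.9 in T cells (median 6.74), and 9 of 18 TAM libraries were above every T cell library. On the log2 scale the difference was 0.999 (SE 0.11, adjusted p = 6.36e-11). With depth as a covariate it was 0.61 with an adjusted p of 0.174, the highest of its range, which begins at 4.38e-19. Leaving out the 2 T cell libraries with the most macrophage markers left *Hspa5* among those called. The part of macrophage RNA in this difference was not tested.

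The promoter of *Hspa5* was searched on both strands for the ER stress response element, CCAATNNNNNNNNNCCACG, which 0.119% of the promoters hold. It is shown because 14 of 20 genes of the ER list were called higher in TAMs. The capitals begin 65 bases before the start, and the stretch lies at chr2:34771999-34772069 on the plus strand.
Hspa5: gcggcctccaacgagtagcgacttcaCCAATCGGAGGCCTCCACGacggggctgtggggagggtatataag

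*Hspe1* (chr1:55088148-55091317) encodes the lid of the mitochondrial chaperonin. In TAMs its normalized number was 36.3 to 59.7 in WT mice (median 37.8), 18.6 to 39.6 in *muMt*-/- mice (median 31.0) and 24.4 to 46.3 with GABA (median 40.1). Of the *muMt*-/- libraries, 5 of 6 were below all WT libraries, and 3 GABA libraries were above all *muMt*-/- ones. The log2 fold change for *muMt*-/- against WT mice was -0.51 (SE 0.19, adjusted p = 0.175). For GABA against *muMt*-/- mice it was 0.36 (SE 0.20, adjusted p = 0.645). Neither passed the correction.

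Between cell types *Hspe1* was 0.964 to 3.19 per 10000 in TAMs (median 1.98) and 1.42 to 5.56 in T cells (median 3.74). The ranges overlapped, with 3 of 18 TAM libraries below every T cell library. The log2 fold change was -0.67 (SE 0.14, adjusted p = 5.15e-05), and in WT libraries alone -0.37 with an adjusted p of 0.254, in a range that begins at 3.56e-07. In T cells the fold changes between groups were 0.08 to 0.25, and some changed sign under alternatives.

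The 7 promoters found differ in their heat shock units. That of *Hspe1* holds a run of alternating units, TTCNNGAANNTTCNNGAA, found in 0.0152% of the promoters (5 of 32851), and is shown for contrast with the single pair of units of *Hspa1a*. Runs of either GAANNTTCNNGAA or TTCNNGAANNTTC were in 0.603% of the promoters, among them those of *Hspe1* and *Hsph1*. *Dnaja1* has a GAANNTTC, at position -124 from the first of its starts, and the promoters of *Dnajb1* and *Hspa5* have neither pair. The capitals of *Hspe1* begin 89 bases before the start, and the stretch lies at chr1:55088033-55088102 on the plus strand.
Hspe1: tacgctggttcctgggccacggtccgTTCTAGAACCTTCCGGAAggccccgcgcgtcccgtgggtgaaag

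Other genes of protein folding were taken from 8 lists of 108 genes. In TAMs of *muMt*-/- against WT mice, 0 of 93 tested were called higher and 1 lower, where 2.05% of all 9469 genes were called (97 higher and 97 lower). The 1 was *Cct7*, a subunit of the cytosolic chaperonin TRiC, at -0.88 (SE 0.22, adjusted p = 0.0256). With depth as a covariate 11 genes in all were called, and whether *Cct7* was among them was not recorded. Its normalized number was 35.3 ± 6.98 in WT mice, 18.9 ± 7.08 in *muMt*-/- mice and 24.9 ± 7.41 with GABA (mean ± SD of 6 libraries each). Of the 93, 15 (16.1%) had an unadjusted p under 0.05, against 14.9% of all genes. Among them, the 14 genes of TRiC and prefoldin had a median of -0.42, with 5 at an unadjusted p under 0.05, all lower, against a median of -0.05 for all genes. The medians of the other lists of protein folding lay between -0.31 (small heat shock genes, 2 tested) and 0.11 (other HSP70 and HSP110 genes). That of the 20 co-chaperones was -0.24, with 3 lower at that p. The *muMt*-/- TAM libraries also differ in *Malat1* and *Rn45s*, as given below, and the part of this here was not tested. With GABA against *muMt*-/- TAMs the median of the TRiC and prefoldin genes was 0.26 and 13 of 14 were higher. All genes had a median of 0.06 and 55.8% higher, and the mitochondrial list and the co-chaperones had medians of 0.31 and 0.21. Of the 14, edgeR called 0, and 2 had an unadjusted p under 0.05. In the other comparisons of groups and in both interactions, edgeR called 0 of the genes of these lists, of which 82 were tested in T cells and 89 in both cell types. Those with an unadjusted p under 0.05 were 8 (8.6%) for GABA against *muMt*-/- and 6 (6.45%) for GABA against WT in TAMs, where all genes gave 8.46% and 7.02%. In T cells they were 5 (6.1%) for *muMt*-/- against WT, 2 (2.44%) for GABA against *muMt*-/- and 6 (7.32%) for GABA against WT, where all genes gave 6.17%, 3.71% and 6.89%. In the interactions they were 8 (8.99%) and 1 (1.12%), where all genes gave 10.1% and 4.53%.

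Between cell types 22 of the 89 were called higher in TAMs and 10 lower, where 26.9% and 12.2% of all genes were. The ER chaperones and genes of the unfolded protein response stood on the TAM side: 14 of 20 tested were higher and 0 lower, with a median of 0.66 against 0.19 for all genes. The 5 of them with the smallest p were *Sdf2l1* (1.56), *Pdia3* (0.93), *P4hb* (0.90), *Hsp90b1* (0.75) and *Calr* (0.72), in log2 fold change. These encode a partner of BiP's J-domain proteins, a pair of disulfide isomerases, the ER's HSP90 and a lectin chaperone. *Hspa5* thus had the direction of its compartment's list.

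The cytosolic and mitochondrial lists did not share that direction. Their counts stand against 26.9% of all genes called higher and 12.2% called lower. Of 14 genes of TRiC and prefoldin, 0 were higher and 3 lower, *Cct7* (-0.70), *Tcp1* (-0.56) and *Cct3* (-0.39), with a median of -0.19. Of 9 mitochondrial chaperones and proteases, 0 were higher and 1 lower: *Hspd1*, the chaperonin that *Hspe1* caps, at -0.54 (SE 0.14, adjusted p = 0.0012), with a median of -0.18. *Hspe1* and *Hspd1* thus lay on the same side.

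Partners of HSP70 and HSP90 were mixed, where 26.9% of all genes were called higher and 12.2% lower. Of 16 other J-domain genes, 3 were higher, *Dnajc13* (0.83), *Dnajb14* (2.49) and *Dnajc10* (0.98), and 2 lower, *Dnajc15* (-1.61) and *Dnajc1* (-0.69), with a median of -0.06. Of 20 co-chaperones, 3 were higher and 3 lower with a median of -0.01, and the 5 with the smallest p were *Ahsa1* (0.86), which drives the ATPase of HSP90, *Fkbp4* (-0.64), *Bag3* (1.42), *Unc45a* (-1.10) and *Ppid* (-0.50). *Dnajb14* was at 0 in all WT T cell libraries, so that its fold change depends on the fit.

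Of 4 other HSP70 and HSP110 genes, 0 were higher and 1 lower, *Hspa14* (-0.44), with a median of 0.31. The shares of all genes called, 26.9% higher and 12.2% lower, apply to the lists of this paragraph too. Of 5 heat shock factors and regulators, 2 were higher, *Hmox1* (2.04) and *Hsbp1* (0.66), and 0 lower, with a median of 0.58. Of the 9 small heat shock genes only *Hspb11* was tested in this fit, and it was at 0.27 (SE 0.32, adjusted p = 0.565). *Hspb11* had its smallest p in T cells of *muMt*-/- against WT mice, at 1.81 (SE 0.72, adjusted p = 0.652). *Hspb8*, tested in TAMs only, had its smallest for GABA against *muMt*-/- mice, at 1.47 (SE 0.80, adjusted p = 0.634).

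Immediate early genes, a list of 18 that respond within minutes to many stimuli, were set beside the inducible chaperones. In TAMs they summed to 55.1 to 69.2 per 10000 molecules in WT mice (median 66.1), 68.2 to 103 in *muMt*-/- mice (median 80.3) and 63.4 to 74.0 with GABA (median 67.0). The *muMt*-/- sums overlapped with the other groups only at their lower end. Of the 18, 1 was called higher in *muMt*-/- against WT TAMs and 0 lower, where 2.05% of all 9469 genes were called (97 higher and 97 lower). The 1 was *Dusp1*, at 0.57 (SE 0.15, adjusted p = 0.0317). Whether *Dusp1* stays called with depth as a covariate was not recorded. Without adjustment 11 had a p under 0.05, all higher, where 14.9% of all genes did, and the median of the list was 0.41, against -0.05 for all genes. With GABA against *muMt*-/- TAMs the list had a median of -0.31, with 0 called by edgeR and 4 lower at an unadjusted p under 0.05 (8.46% of all genes), and against WT TAMs it was 0.09, with 0 called and 1 lower at that p (7.02% of all genes). *Malat1*, a nuclear RNA, and the ribosomal *Rn45s* were also higher in every *muMt*-/- TAM library than in any WT one. Medians in *muMt*-/- and WT mice were 54.4 and 34.9 per 10000 for *Malat1* and 1333.2 and 935 for *Rn45s*. The share of all genes without overlap between these groups was not counted. *muMt*-/- replicate 4 was the highest of its group in both and in the immediate early sum. The part of such RNA in these fold changes was not tested. GABA replicate 1 was the highest of all TAM libraries in *Rn45s* (1986.6), and the highest of its group in *Malat1*.

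The sum of *Hspa1a* and *Hspa1b* was set against the immediate early sum over the 18 libraries of a cell type, with group means removed. In TAMs Pearson's r was -0.05 (permutation p = 0.856, adjusted p = 0.97) and Spearman's rho 0.01 (permutation p = 0.969, adjusted p = 0.969), adjusted over 4 relations of this sum, with immediate early genes and with depth in both cell types. Without the 2 libraries farthest from the median of the pair, r was -0.42. In T cells r was 0.53 (permutation p = 0.0505, adjusted p = 0.202) and rho 0.50 (permutation p = 0.0661, adjusted p = 0.264), and without 2 libraries r was 0.33. None of the 4 passed.

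In T cells these genes summed to 36.4 to 54.2 per 10000 in WT mice (median 48.3), 36.4 to 95.7 in *muMt*-/- mice (median 51.6) and 31.1 to 62.2 with GABA (median 47.6). The highest of the *muMt*-/- and of the GABA libraries were again replicate 1 of each. These are also the T cell libraries with the most macrophage markers, whose part in these sums was not tested. None was called between groups by edgeR. For *muMt*-/- against WT mice 7 of 17 tested had an unadjusted p under 0.05, all higher, where 6.17% of all genes had (411, of which 358 were higher), and macrophage markers reached higher sums in those *muMt*-/- libraries. For GABA the numbers were 2 of 17, both lower, against *muMt*-/- (3.71% of all genes) and 0 of 17 against WT mice (6.89%). In the interactions edgeR called 0 of 18, with 2 and 1 at an unadjusted p under 0.05 (10.1% and 4.53% of all genes). Between cell types 10 of 18 were called higher in TAMs and 3 lower, against 26.9% and 12.2% of all genes, with a median of 0.61 against 0.19, and the 5 with the smallest p were *Dusp1* (1.89), *Fos* (2.04), *Zfp36* (1.42), *Atf3* (2.24) and *Socs3* (1.32).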

How the data were processed

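The authors mapped the reads with STAR to mm10 and deposited counts of distinct barcoded molecules per gene for 36 libraries, with no normalization. The columns were matched to groups by their names, and all 36 were used. Tests were edgeR 4.0.16 quasi-likelihood F-tests on TMM-normalized counts (1 coefficient per group; 18 libraries per cell type, or all 36), over genes with a mean above 1 after division by DESeq2 1.42.0 size factors, with Benjamini-Hochberg adjustment over all genes tested and a threshold of 0.05. Normalized numbers are counts divided by those size factors within a cell type; values per 10000 are shares of a library's molecules. Depth per library, 22896 to 304100 molecules, sets the counting error. Correlations used log2 of the normalized number plus 1 with 100000.0 permutations of libraries within groups. Spread beyond counting error is the variance within groups less the Poisson variance. R 4.3.3, limma 3.58.1 and Python 3.11.15 (numpy 2.4.6, pandas 2.3.3, scipy 1.17.1, matplotlib 3.10.9) were used, and the procedure was tested on simulated data.

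Gene lists were written from general knowledge, and the 10 genes and the lists were chosen with earlier results of these data known. Named genes were the 10, from each list those with an adjusted p under 0.05 in a comparison (where more than 5 passed, the 5 with the smallest p; where none passed in any comparison, the 2 with the smallest unadjusted p), and the 5 genes most like the summed *Hspa1a* and *Hspa1b* in each cell type. Library sizes were the totals over the genes tested, edgeR's default. A first fit used totals over all genes, and the change was made after its count had been seen: it called 195 genes in *muMt*-/- against WT TAMs, where the fit reported calls 194, and 3315 against 3318 between cell types. That fit is kept as an alternative, beside leaving out the 2 T cell libraries with the most macrophage markers, which was also chosen after the data were seen. The other alternatives were DESeq2's size factors in edgeR, its Wald test, filterByExpr, no filter, a replicate block (libraries with the same number), edgeR's robust option, depth (log2 molecules) as a covariate, the sum of *Hspa1a* and *Hspa1b*, the 12 libraries of a comparison, WT libraries alone and leaving out each library in turn. Immunoglobulin genes were not analysed.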

Additional observations from a re-analysis of the deposited data

Results flagged for a closer look

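In 60 groups of 6 libraries (10 genes, 6 groups) the highest or lowest library was compared with the others, and in 10 of them it lay apart from its nearest neighbour by more than Dixon's critical share of the group's range. Chance gives about 1 in 20 groups. Values are normalized molecules.

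In TAMs, *Hspa1b* was at 42.69 in WT replicate 5, where the next library had 13.1, and at 50.88 in *muMt*-/- replicate 1, where the next had 13.7. *Hsp90aa1* was low in *muMt*-/- replicate 3, at 78.36, with the nearest other at 107. It was high in GABA replicate 1, at 183.2, with the next at 103. *Hsph1* was at 20.78 in GABA replicate 6, with the next at 10.2.

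In CD8+ T cells, *Hspa1a* was at 10.11 in *muMt*-/- replicate 1, with the next at 2.24. GABA replicate 2 stood apart for both inducible genes, with *Hspa1a* at 30.18 (next 5.72) and *Hspa1b* at 21.95 (next 3.81). GABA replicate 1 stood apart for *Hspa5*, at 74.36 (next 44.8), and for *Hspa8*, at 207.8 (next 152). That library and *muMt*-/- replicate 1 had the most macrophage markers of the T cell libraries, 26.5 and 43.3 per 10000 molecules, and their part in these values was not tested.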

How the results depend on the processing

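Of 2533 values of the 10 genes under the alternatives, 168 changed sign, 11 became significant and 6 ceased to be (6 of the 11 only because DESeq2's p was taken unadjusted there), and the rest kept direction and side of the threshold. No chaperone was called between groups after adjustment under any alternative. The cause of each change below was not tested, unless fewer libraries or genes explain it.

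Genes called, in the order *muMt*-/- against WT, GABA against *muMt*-/- and GABA against WT. In TAMs (194, 2 and 7) DESeq2's adjusted Wald test gave 62 and 13 for the last 2, filterByExpr 295 for the first and 2 for the last, no filter 343, 51 and 63, the replicate block 4 and a robust fit 4 for the second, the depth covariate 11 and 5 for the first 2, and the 12 libraries alone 324 for the first and 3 for the last. In T cells (0, 0 and 0) no filter gave 72, 11 and 64, the 12 libraries alone 1, 1 and 1, the depth covariate 6 for the second, leaving out the 2 libraries with most macrophage markers 2 for the second and 2 for the last, the replicate block 2 and 1 for these, and DESeq2's size factors and its adjusted Wald test 1 each for the last. DESeq2's unadjusted p gave 1111, 580 and 440 genes with 2, 1 and 1 chaperones in TAMs, and 222, 133 and 222 with 1, 1 and 0 in T cells.

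Between cell types (3318 genes, 5 chaperones), filterByExpr gave 1661 genes, the depth covariate 1028 with 2 chaperones, and WT libraries alone 2034 with 3. For the interaction of cell type with loss of B cells (1 gene) DESeq2's Wald test gave 38, no filter 79, the replicate block 2, leaving out the 2 T cell libraries 5, and filterByExpr, DESeq2's size factors and a robust fit 0 each (853 genes at edgeR's unadjusted p under 0.05); for that with GABA (0 genes), no filter gave 17 and leaving out the 2 libraries 3.

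Leaving out single libraries gave 69 to 230, 2 to 35 and 2 to 9 genes in TAMs, 0 to 13, 0 to 1 and 0 to 1 in T cells, and 0 to 9 and 0 to 2 for the interactions. The 35 came without GABA replicate 1 and the 13 and 9 without T cell WT replicate 5. Between cell types 5 to 6 chaperones were called.

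For values given singly in the report, for *Hspa1a* and *Hspa1b*, and for the highest and lowest of each comparison, the reversed log2 fold changes follow. The report gives the others of the 168 as counts or ranges or not at all. The reversed values were, for *Hspa1b* in *muMt*-/- against WT TAMs, -0.02 without the filter and -0.03 with the depth covariate. In *muMt*-/- against WT T cells they were -0.03 for *Hspa1a* with the replicate block, and -1.16 for *Hspa1a* and -0.16 for *Hspa1b* without the 2 T cell libraries. Between cell types they were -0.01 for *Hspa8* with filterByExpr, and 0.02 without the filter and 0.21 in WT libraries alone for *Hsp90aa1*. In the interaction with loss of B cells, *Hspa1a* (-0.223) ranged from -0.767 to 1.28 over the alternatives. *Hspa1b* (-0.274) ranged from -1.14 to 0.576 there. With single libraries left out, signs changed within these ranges: in TAMs, *Hspa1a* -0.31 to 0.34 and *Hspa1b* -0.55 to 0.87 for *muMt*-/- against WT, *Hspa1b* -0.74 to 0.29 for GABA against *muMt*-/-, and *Hspa1b* -0.74 to 0.60 and *Dnaja1* -0.06 to 0.26 for GABA against WT; in T cells, *Hspa1a* -1.11 to 0.64 and *Hspa1b* -0.15 to 0.58 for *muMt*-/- against WT, *Hspa1a* -0.39 to 2.86 for GABA against *muMt*-/-, and *Hspa1a* -0.07 to 2.07 and *Dnajb1* -0.40 to 0.05 for GABA against WT; between cell types, *Hsp90aa1* -0.15 to 0.02; 0.01 for *Hspa5* in GABA against WT TAMs without WT replicate 3; and -0.02 to 0.20 for *Hspa5* in the interaction with loss of B cells.

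Libraries that share a replicate number were not alike as pairs, so the replicate block joins libraries with no shown link: within TAMs 0 of 18 correlations of libraries with the same number were over 0.1, within T cells 5 of 18 and across cell types 1 of 18. Depth limits *Hspa1a*, *Hspa1b*, *Dnajb1* and *Hsph1* in T cells, where most libraries hold under 10 molecules of each. Changes in them were thus hard to detect.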
